A study of Saccharomyces cerevisiae with 21 samples.

Results

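The autophagy-related (ATG) genes of budding yeast were taken as every gene of the deposited expression table whose name is ATG followed by a number, which gave 31 of 6407 genes. RNA was measured by poly(A) RNA sequencing in W303 strains that lack the chromosomal copy of a subunit gene of the Swi/Snf chromatin remodeller, either SWI3, a structural subunit, or SNF2, the ATPase. There were 7 groups of 3 libraries. The SWI3 family, in which all strains carry swi3[delta], held swi3-E815X (swi3-E815X::LEU2), swi3del (LEU2 with no SWI3 copy) and its wild type SWI3 (SWI3::LEU2). The SNF2 family, in which all strains carry snf2[delta], held snf2-W935R (snf2-W935R::LEU2), snf2-Q928K (snf2-Q928K::LEU2), snf2del (LEU2 with no SNF2 copy) and its wild type SNF2 (SNF2::LEU2). Each wild type is thus a deletion strain with the gene put back. All cells were harvested in mid-log growth in YPD, a rich glucose medium, and replicates came from different days.

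Autophagy encloses cytoplasm in a double membrane, the autophagosome, and delivers it to the vacuole for breakdown. In yeast, nitrogen starvation or loss of TORC1 activity switches on the Atg1 kinase, a lipid kinase complex and Atg9 vesicles then build the membrane, and a pair of ubiquitin-like systems attach Atg8 to its lipid phosphatidylethanolamine. Atg8 stays on the membrane and binds the receptors that choose cargo such as mitochondria, peroxisomes or vacuolar enzymes. A part of the same machinery works in fed cells in the Cvt pathway, which carries aminopeptidase Ape1 to the vacuole.

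Levels were deposited as TPM (transcript abundance scaled by gene length and to a fixed library total), so a level is a share of the RNA and a change in RNA per cell cannot be seen. Depth is unknown. The 21 libraries summed to between 960811 and 1000396 TPM, and replicates correlated across genes at 0.987 to 0.995. SWI3 RNA was 0.127 ± 0.0601 TPM in swi3del, against 37.1 ± 1.38 TPM in SWI3 (SD, n = 3 each), and the level of SNF2 RNA was not analysed here. LEU2, a leucine synthesis gene, had 135.9 ± 1.84 TPM in swi3del, against 0.226 ± 0.0886 TPM in SWI3, and 151.2 ± 19.9 TPM in snf2del, against 0.336 ± 0.187 TPM in SNF2, although every genotype names LEU2. Each deletion therefore differed from its wild type in LEU2 as well, and the part of LEU2 in the results that follow was not tested. Changes are log2 differences of TPM + 1 with their standard error (limma), called where the p-value adjusted over all genes tested was under 0.05.

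The promoters of 4 members are shown because they span what the data hold: ATG8, which changed most, ATG19 and ATG32, whose promoters hold several of the motifs searched, and ATG22, among the largest changes and with none of them. The windows run from 250 to 51 bases before the start codon in build R64, 5′ to 3′ on the gene's strand: ATG8 is chrII:80782-80981 on the minus strand, ATG19 is chrXV:168477-168676 on the plus strand, ATG32 is chrIX:75824-76023 on the minus strand and ATG22 is chrIII:56578-56777 on the minus strand. Capitals mark 3 motifs on either strand. GGCGGC is the core of the URS1 element bound by the repressor Ume6. The stress element bound by Msn2 and Msn4 has the core AGGGG. The GATA element bound by Gln3 and Gat1 was searched as GATAAG.
ATG8: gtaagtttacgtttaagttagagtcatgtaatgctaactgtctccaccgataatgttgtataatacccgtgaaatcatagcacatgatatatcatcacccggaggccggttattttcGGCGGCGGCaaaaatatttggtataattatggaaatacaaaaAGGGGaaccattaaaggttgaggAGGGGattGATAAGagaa
ATG19: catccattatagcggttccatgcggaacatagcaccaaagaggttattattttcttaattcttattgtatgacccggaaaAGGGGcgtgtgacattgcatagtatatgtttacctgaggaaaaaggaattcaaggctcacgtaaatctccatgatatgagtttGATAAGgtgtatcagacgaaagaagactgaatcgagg
ATG32: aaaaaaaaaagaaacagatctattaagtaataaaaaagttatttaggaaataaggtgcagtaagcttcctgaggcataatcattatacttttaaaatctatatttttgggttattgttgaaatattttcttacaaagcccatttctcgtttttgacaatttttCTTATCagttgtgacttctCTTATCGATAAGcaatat
ATG22: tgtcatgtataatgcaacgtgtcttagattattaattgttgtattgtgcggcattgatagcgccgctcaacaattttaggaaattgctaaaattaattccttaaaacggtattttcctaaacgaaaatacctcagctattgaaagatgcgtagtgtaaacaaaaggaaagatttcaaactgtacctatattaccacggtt

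Over the 300 bases before the start codon, GGCGGC lay in 2 of 31 members (ATG8 and ATG19), against 5.2% of all 6002 promoters. AGGGG lay in 9 members, against 22.2% of all promoters, and GATAAG in 10 members, against 14.7%. All 3 motifs stood together in ATG8, ATG19 and 12 promoters in all (0.2%), while 17 of 31 members and 63.4% of all promoters held none. In ATG8 the GGCGGC matches overlap each other, at 133 and 130 bases before the start, and are followed by AGGGG at 91 and 68 and GATAAG at 60. ATG19 held GGCGGC at 43 bases before the start, outside the window printed. ATG32 held GATAAG 3 times and AGGGG at 264 bases. Of the 14 members that rose by a log2 change of at least 1 in either deletion, 2 held GGCGGC, 5 AGGGG and 7 GATAAG. Among all 31 members the counts were 2, 9 and 10, and a link of motif and rise was not tested. No matches of different motifs overlapped in the members. A match is a string of letters, and binding was not measured.

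ATG genes were higher as a group in both deletions, by a smaller amount in snf2-Q928K, and close to wild type in snf2-W935R and swi3-E815X. In swi3del, 26 of 31 members rose and 1 fell, where 47.4% of all genes tested rose and 24.3% fell. In snf2del, 26 members rose and 0 fell, where 50.2% of all genes rose and 24.6% fell. No further member had an unadjusted p under 0.05 there (26 in all, where 76.6% of all genes passed), and the authors' deposited table lists 0 lower. The median log2 change of the members was 0.75 in swi3del, against 0.23 for all genes tested, and 0.83 in snf2del, against 0.26 for all genes. Since the median gene itself shifted by 0.23 and 0.26, the members stood 0.51 and 0.58 above it. Scaling the libraries to a common median ratio removed that shift: 24 members then rose and 2 fell in each deletion, where 35.8% of all genes rose and 35.7% fell in swi3del, and 38.0% rose and 37.7% fell in snf2del. Quantile normalization left 20 higher and 2 lower in swi3del, where 33.4% of all genes rose and 37.7% fell, and 20 higher and 6 lower in snf2del, where 36.0% rose and 40.5% fell.

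**Figure D1:**
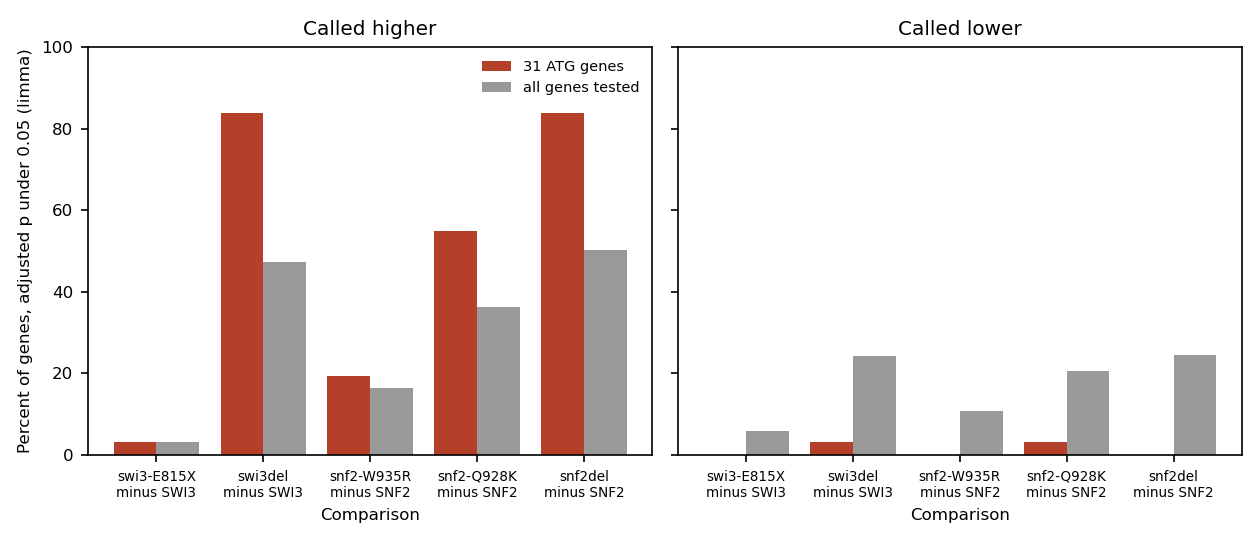
Percent of genes called higher (left) or lower (right) by limma at an adjusted p under 0.05 in each mutant against its wild type, for the 31 ATG genes (red) and all genes tested (grey). For higher calls the red bar stands well above the grey in swi3del, snf2-Q928K and snf2del, slightly above it in snf2-W935R (19.4% against 16.3%) and level with it in swi3-E815X (3.23% against 3.06%), and it is below the grey for lower calls in all 5 comparisons.

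The summed level of the 31 members was 637 ± 14.7 TPM in swi3-E815X and 1199 ± 42.9 TPM in swi3del, against 628 ± 5.93 TPM in SWI3. For the SNF2 family the sum was 659.0 ± 26.6 TPM (snf2-W935R), 814.7 ± 23.6 TPM (snf2-Q928K) and 1231 ± 29.0 TPM (snf2del), against 623 ± 10.6 TPM in SNF2 (SD, n = 3 each). The members were otherwise low genes: their median level was 14.6 TPM in SWI3 and 13.8 TPM in SNF2, where the median of all genes was 38.5 and 38.9 TPM. ATG14 had the lowest mean over the 7 groups.

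**Figure D2:**
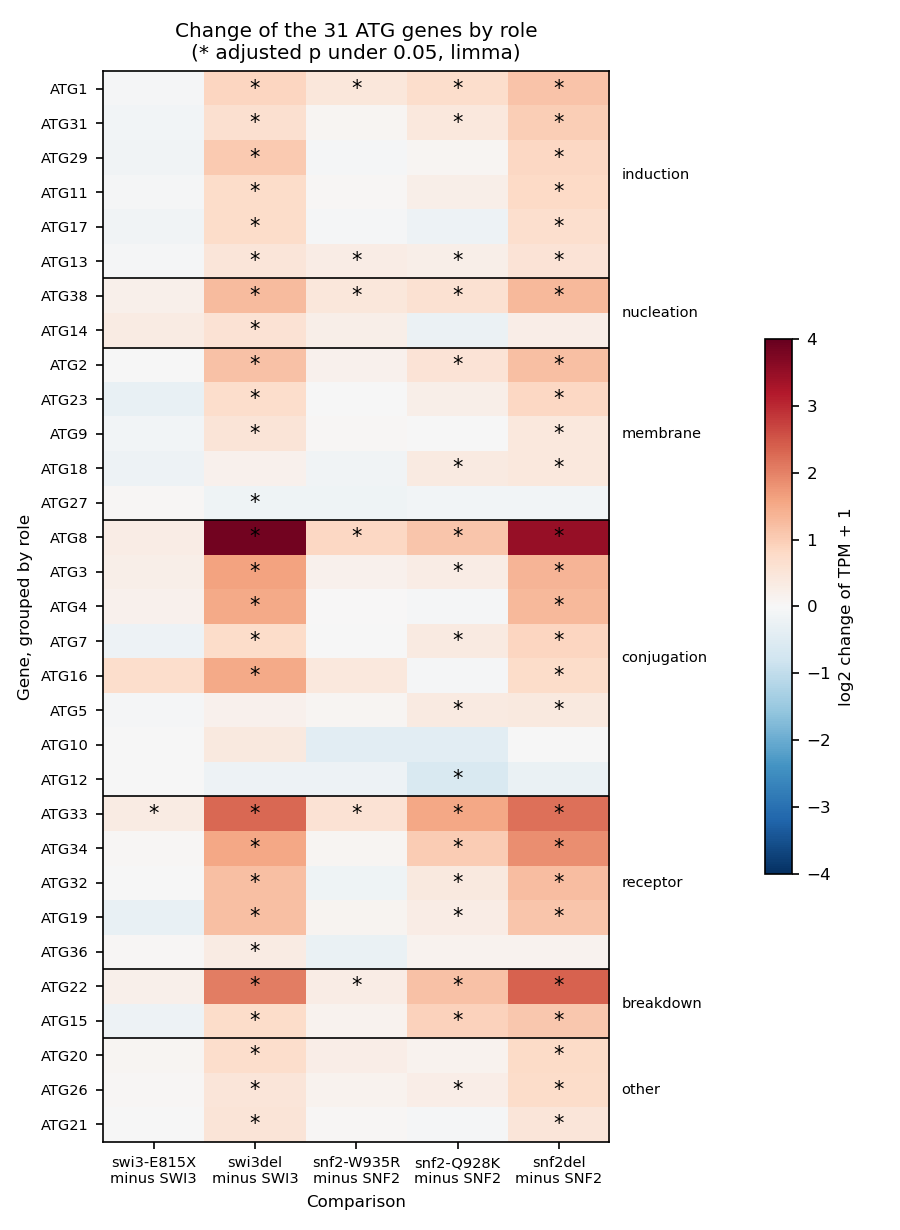
Log2 change of TPM + 1 (colour) of each of the 31 ATG genes, grouped by role, in the 5 mutants against their wild type, with a star where limma's adjusted p was under 0.05. Both deletion columns are red with stars in nearly every role, snf2-Q928K is paler, and snf2-W935R and swi3-E815X hold 6 stars and 1 star.

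The ubiquitin-like conjugation systems held the largest change. ATG8 encodes the ubiquitin-like protein that is joined to phosphatidylethanolamine and lies at chrII:80378-80731 (YBL078C). It had 6.17, 4.43 and 8.05 TPM in swi3-E815X and 87.0, 70.3 and 92.0 TPM in swi3del, against 5.85, 3.32 and 5.36 TPM in SWI3. In the SNF2 family ATG8 had 11.4, 11.4 and 11.7 TPM in snf2-W935R, 13.9, 14.3 and 14.0 TPM in snf2-Q928K and 86.9, 70.9 and 76.5 TPM in snf2del, against 5.40, 6.54 and 6.14 TPM in SNF2. All libraries of swi3del and of the 3 snf2 mutants lay above every library of their wild type, while those of swi3-E815X overlapped SWI3. The log2 change was 3.87 ± 0.21 in swi3del (limma adjusted p = 5.64e-08) and 3.49 ± 0.09 in snf2del (limma adjusted p = 5.59e-13). These changes were the 14th highest of 6395 genes tested in swi3del and the 30th highest of 6398 in snf2del. Mean TPM itself, without the 1 added for the log2 change, was 17.2 times the wild type in swi3del and 13.0 times in snf2del. ATG8 also rose by 0.84 ± 0.09 in snf2-W935R (limma adjusted p = 8.83e-06) and by 1.10 ± 0.09 in snf2-Q928K (limma adjusted p = 1.89e-07). In swi3-E815X the change was 0.30 ± 0.21 (limma adjusted p = 0.467, 95% interval from -0.18 to 0.78). Among the 31 members ATG8 ranked 3 by level in both deletions, against 29 in both wild types, and its share of their summed level was 6.93% in swi3del, against 0.771% in SWI3, and 6.35% in snf2del, against 0.968% in SNF2.

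**Figure D3:**
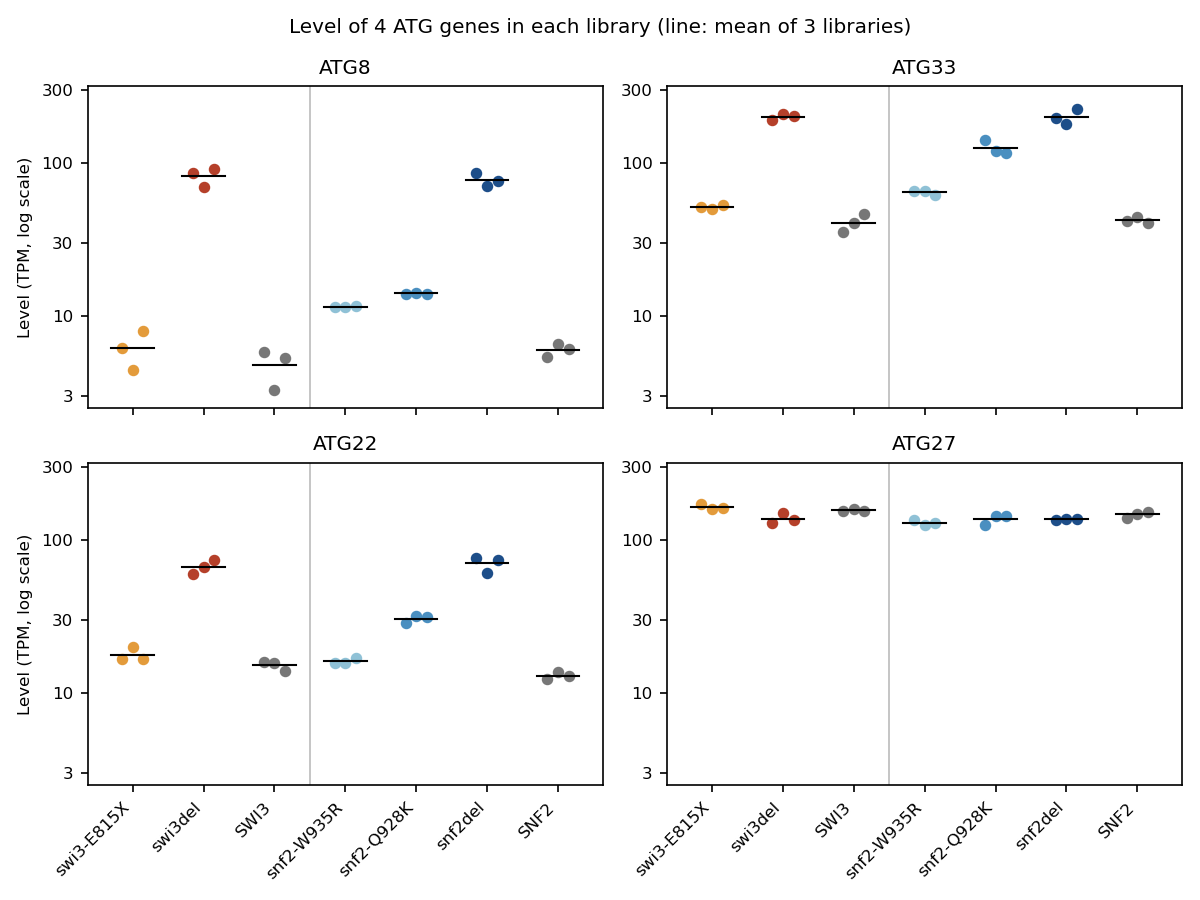
Level in TPM on a log scale of ATG8, ATG33, ATG22 and ATG27 in each library (points) with the group mean (line), SWI3 family left of the grey divider and SNF2 family right of it. ATG8, ATG33 and ATG22 stand far above their wild types in both deletions, snf2-Q928K lies between for ATG33 and ATG22 and close to snf2-W935R for ATG8, and ATG27 is nearly level.

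Of the 8 conjugation genes, 5 rose in swi3del and 6 in snf2del, where 47.4% and 50.2% of all genes did. A difference of these 8 genes from the shares of all genes was not tested. ATG3, the E2-like enzyme of Atg8, had 20.4, 16.8 and 23.5 TPM in swi3-E815X and 58.3, 51.3 and 52.6 TPM in swi3del, against 14.6, 16.6 and 19.97 TPM in SWI3. For ATG3 the values were 25.8, 23.6 and 21.1 TPM in snf2-W935R, 24.2, 26.3 and 26.5 TPM in snf2-Q928K and 57.9, 56.6 and 49.8 TPM in snf2del, against 21.5, 18.3 and 22.0 TPM in SNF2. The deletions did not overlap the other groups, and ATG3 rose by 1.62 ± 0.13 in swi3del and 1.37 ± 0.10 in snf2del. It rose by 0.31 ± 0.10 in snf2-Q928K (limma adjusted p = 0.0133), a call that median-ratio scaling, quantile normalization and the fit without SNF2 replicate 2 ended (0.20, 0.19 and 0.23).

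ATG4, the protease that trims Atg8 and frees it from the membrane, had 7.59, 7.14 and 8.05 TPM in swi3-E815X and 20.4, 20.2 and 21.2 TPM in swi3del, against 6.99, 6.16 and 6.62 TPM in SWI3. For ATG4 the SNF2 family gave 9.10, 7.70 and 7.57 TPM in snf2-W935R, 6.74, 7.81 and 8.88 TPM in snf2-Q928K and 21.8, 19.6 and 21.5 TPM in snf2del, against 9.14, 7.92 and 6.98 TPM in SNF2. Both deletions were about the same, and both snf2-W935R and snf2-Q928K overlapped the wild type. ATG4 rose by 1.51 ± 0.11 in swi3del and 1.29 ± 0.13 in snf2del, against -0.03 ± 0.13 in snf2-Q928K.

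ATG16, the partner of the Atg12-Atg5 conjugate, had 4.18, 4.997 and 6.48 TPM in swi3-E815X and 11.6, 9.57 and 8.73 TPM in swi3del, against 2.02, 2.64 and 3.96 TPM in SWI3. For ATG16 the values were 8.42, 9.36 and 7.72 TPM in snf2-W935R, 5.55, 5.06 and 7.05 TPM in snf2-Q928K and 13.2, 11.8 and 7.82 TPM in snf2del, against 4.46, 5.76 and 8.31 TPM in SNF2. One snf2del library lay within the wild-type range, and the wild types themselves differed. ATG16 rose by 1.52 ± 0.22 in swi3del (limma adjusted p = 5.79e-05) and by 0.74 ± 0.21 in snf2del (limma adjusted p = 0.00505), where quantile normalization turned the snf2del value to -0.04. It was 0.89 ± 0.22 higher in SNF2 than in SWI3 (limma adjusted p = 0.0225), a call that ended without SWI3 replicate 1, SWI3 replicate 2 or SNF2 replicate 3 (0.68 to 1.08 over the 6 fits that leave out 1 library).

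ATG7, the E1-like enzyme of both systems, rose by 0.74 ± 0.15 in swi3del and 0.86 ± 0.15 in snf2del, and quantile normalization ended both calls (0.20 and 0.21). ATG5, the acceptor of Atg12, rose by 0.38 ± 0.08 in snf2del, which median-ratio scaling lowered to 0.13 with no call, and differed by 0.17 ± 0.09 in swi3del with no call. ATG10, the E2-like enzyme of Atg12, and ATG12, the second ubiquitin-like protein, were called in neither deletion. ATG12 had 11.2, 16.2 and 18.6 TPM in swi3del, against 20.8, 14.8 and 16.9 TPM in SWI3, and its changes of -0.20 ± 0.17 in swi3del and -0.25 ± 0.13 in snf2del became lower calls under median-ratio scaling (-0.42 and -0.50). The pair of ubiquitin-like proteins thus differed: ATG8 carried the largest rise of the 31 members, and ATG12 did not rise in any of the 5 mutants.

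Of the receptors and organelle-specific factors, 5 of 5 were higher in swi3del and 4 of 5 in snf2del, where 47.4% and 50.2% of all genes were. ATG33, a mitochondrial protein needed for mitophagy (chrXII:840321-840914), had 51.5, 49.95 and 53.2 TPM in swi3-E815X and 193.1, 210.2 and 202.7 TPM in swi3del, against 35.3, 40.9 and 46.7 TPM in SWI3. For ATG33 the SNF2 family gave 65.7, 66.0 and 61.9 TPM in snf2-W935R, 141.8, 120.8 and 117.3 TPM in snf2-Q928K and 196.7, 181.3 and 227.0 TPM in snf2del, against 41.9, 44.9 and 40.9 TPM in SNF2. Every mutant lay above its wild type in every library, and the snf2 groups did not overlap one another. ATG33 rose by 2.28 ± 0.09 in swi3del (limma adjusted p = 1.38e-09), 0.59 ± 0.09 in snf2-W935R (limma adjusted p = 0.000171), 1.55 ± 0.09 in snf2-Q928K (limma adjusted p = 4.04e-09) and 2.21 ± 0.09 in snf2del (limma adjusted p = 2.76e-11). It was the only member called in swi3-E815X, by 0.33 ± 0.09 (limma adjusted p = 0.0465), and 5 of the 6 fits that leave out 1 library ended that call (0.23 to 0.43).

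ATG34, the receptor of alpha-mannosidase in starved cells, had 4.65, 5.39 and 5.27 TPM in swi3-E815X and 13.4, 15.9 and 19.9 TPM in swi3del, against 4.65, 4.23 and 5.93 TPM in SWI3. For ATG34 the values were 5.20, 4.27 and 4.28 TPM in snf2-W935R, 9.87, 8.48 and 11.1 TPM in snf2-Q928K and 17.9, 20.3 and 17.1 TPM in snf2del, against 4.75, 5.05 and 3.28 TPM in SNF2. It rose by 1.54 ± 0.17 in swi3del, 1.02 ± 0.16 in snf2-Q928K and 1.87 ± 0.16 in snf2del, while snf2-W935R overlapped SNF2.

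ATG19, the Cvt receptor that carries Ape1, had 16.6, 24.7 and 22.9 TPM in swi3-E815X and 55.2, 63.3 and 68.5 TPM in swi3del, against 28.5, 25.6 and 25.2 TPM in SWI3. For ATG19 the SNF2 family gave 35.0, 34.0 and 31.9 TPM in snf2-W935R, 38.4, 38.0 and 38.9 TPM in snf2-Q928K and 72.1, 70.1 and 62.8 TPM in snf2del, against 32.7, 32.4 and 29.2 TPM in SNF2. ATG19 rose by 1.20 ± 0.14 in swi3del and 1.09 ± 0.07 in snf2del, less than ATG8, whose promoter also held all 3 motifs. Its rise of 0.28 ± 0.07 in snf2-Q928K lost its call under quantile normalization (0.17).

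ATG32, the mitophagy receptor of the mitochondrial surface, had 17.3, 17.2 and 16.5 TPM in swi3-E815X and 37.2, 41.2 and 44.0 TPM in swi3del, against 17.0, 17.0 and 17.2 TPM in SWI3. For ATG32 the values were 16.8, 14.4 and 16.2 TPM in snf2-W935R, 21.5, 23.6 and 25.9 TPM in snf2-Q928K and 44.6, 43.2 and 43.9 TPM in snf2del, against 18.7, 16.9 and 18.3 TPM in SNF2. It rose by 1.21 ± 0.08 in swi3del, 0.38 ± 0.09 in snf2-Q928K and 1.24 ± 0.09 in snf2del, and its change of -0.18 ± 0.09 in snf2-W935R was called lower only under the other scalings (-0.20 in both). ATG36, the pexophagy receptor, rose by 0.33 ± 0.12 in swi3del (limma adjusted p = 0.0259), which median-ratio scaling ended (0.10) and quantile normalization turned to -0.08.

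The genes of the last step, in the vacuole, rose in both deletions and in snf2-Q928K. ATG22, a vacuolar exporter of amino acids (chrIII:54941-56527), had 16.6, 20.1 and 16.6 TPM in swi3-E815X and 59.7, 66.8 and 73.6 TPM in swi3del, against 15.9, 15.7 and 14.0 TPM in SWI3. For ATG22 the SNF2 family gave 15.8, 15.6 and 16.9 TPM in snf2-W935R, 28.8, 31.7 and 31.5 TPM in snf2-Q928K and 76.3, 61.1 and 74.3 TPM in snf2del, against 12.3, 13.6 and 12.9 TPM in SNF2. The 4 SNF2-family groups did not overlap. ATG22 rose by 2.06 ± 0.11 in swi3del (limma adjusted p = 9.32e-09), 1.18 ± 0.09 in snf2-Q928K (limma adjusted p = 6.09e-08) and 2.36 ± 0.09 in snf2del (limma adjusted p = 1.94e-11). Its rise of 0.30 ± 0.09 in snf2-W935R lost the call under quantile normalization (0.23) and in 4 of 6 fits that leave out 1 library, without SNF2 replicate 1, SNF2 replicate 3, snf2-W935R replicate 1 or snf2-W935R replicate 3.

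ATG15, the lipase that opens autophagic bodies, had 23.3, 21.5 and 22.1 TPM in swi3-E815X and 42.0, 52.2 and 40.1 TPM in swi3del, against 25.9, 25.6 and 26.7 TPM in SWI3. For ATG15 the values were 25.9, 25.1 and 27.4 TPM in snf2-W935R, 43.5, 46.4 and 46.2 TPM in snf2-Q928K and 53.0, 51.7 and 49.1 TPM in snf2del, against 18.5, 26.0 and 26.9 TPM in SNF2. It rose by 0.75 ± 0.10 in swi3del, 0.92 ± 0.11 in snf2-Q928K and 1.09 ± 0.11 in snf2del. Between snf2-Q928K and snf2del the ATG15 difference was -0.17 ± 0.11 with no call.

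All 6 genes of the Atg1 kinase complex and its scaffolds rose in both deletions, where 47.4% of all genes rose in swi3del and 50.2% in snf2del. ATG1, the kinase that starts autophagosome formation, had 8.36, 6.77 and 6.15 TPM in swi3-E815X and 13.8, 13.6 and 14.6 TPM in swi3del, against 7.55, 7.32 and 6.81 TPM in SWI3. For ATG1 the SNF2 family gave 9.33, 9.24 and 11.2 TPM in snf2-W935R, 11.4, 13.0 and 11.4 TPM in snf2-Q928K and 18.8, 16.0 and 15.03 TPM in snf2del, against 6.42, 8.01 and 6.67 TPM in SNF2. ATG1 rose by 0.87 ± 0.13 in swi3del, by 0.44 ± 0.12 and 0.69 ± 0.12 in the alleles snf2-W935R and snf2-Q928K, and by 1.13 ± 0.12 in snf2del, so snf2-W935R and snf2-Q928K lay between the deletion and the wild type. The snf2-W935R call ended under quantile normalization (0.28) and without SNF2 replicate 1, SNF2 replicate 3 or snf2-W935R replicate 3.

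ATG29, which joins ATG17 and ATG31 in the scaffold of the kinase, had 4.59, 6.67 and 6.74 TPM in swi3-E815X and 14.7, 16.1 and 13.3 TPM in swi3del, against 7.99, 5.44 and 6.59 TPM in SWI3. For ATG29 the values were 7.82, 7.01 and 8.09 TPM in snf2-W935R, 7.22, 8.97 and 8.92 TPM in snf2-Q928K and 13.8, 14.5 and 16.2 TPM in snf2del, against 7.12, 10.5 and 6.38 TPM in SNF2. It rose by 1.04 ± 0.17 in swi3del and 0.84 ± 0.16 in snf2del, where quantile normalization ended the call (0.23). The annotated gene overlaps SET6 by 24 bases, and whether the counting used strand is not given in the sources used here, so the ATG29 values are less certain. SET6 itself rose by 1.08 ± 0.15 in swi3del and 1.04 ± 0.14 in snf2del, about as much as ATG29, and its part in the ATG29 values was not tested. The other 4, ATG13 (the regulatory subunit), ATG17, ATG31 and ATG11 (the scaffold of selective autophagy), rose by 0.47 to 0.75 in swi3del and 0.54 to 0.97 in snf2del. Quantile normalization ended the ATG17 calls in both deletions (0.28 in swi3del and 0.14 in snf2del) and the ATG31 call in swi3del (0.28). ATG13 was also called in snf2-W935R (0.29 ± 0.08) and snf2-Q928K (0.24 ± 0.08), where median-ratio scaling ended the snf2-Q928K call (0.13).

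Of the pair of members in the lipid kinase complex that starts the membrane, 1 rose in both deletions. Of all genes, 47.4% rose in swi3del and 50.2% in snf2del. ATG38 had 16.6, 17.3 and 19.6 TPM in swi3-E815X and 36.0, 39.5 and 38.8 TPM in swi3del, against 13.8, 16.2 and 15.7 TPM in SWI3. For ATG38 the SNF2 family gave 20.01, 20.01 and 19.2 TPM in snf2-W935R, 22.1, 21.9 and 22.3 TPM in snf2-Q928K and 38.6, 36.1 and 35.4 TPM in snf2del, against 16.5, 15.6 and 11.2 TPM in SNF2. It rose by 1.27 ± 0.10 in swi3del, by 0.44 ± 0.11 and 0.60 ± 0.11 in the alleles snf2-W935R and snf2-Q928K, and by 1.30 ± 0.11 in snf2del. ATG14, the subunit that gives the complex its autophagy role, had 4.89, 4.07 and 5.63 TPM in swi3-E815X and 6.75, 6.30 and 4.87 TPM in swi3del, against 3.05, 4.58 and 3.34 TPM in SWI3. For ATG14 the values were 7.77, 5.49 and 5.70 TPM in snf2-W935R, 4.04, 4.93 and 3.64 TPM in snf2-Q928K and 5.16, 7.36 and 6.47 TPM in snf2del, against 5.29, 4.66 and 5.38 TPM in SNF2. The groups lay close together at these low levels. The ATG14 change of 0.59 ± 0.20 in swi3del (limma adjusted p = 0.0193) was a call that median-ratio scaling ended (0.39), quantile normalization turned to -0.26, and 4 of 6 fits without 1 library ended (without SWI3 replicate 1 or 3, or swi3del replicate 1 or 2).

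Among the 5 genes of Atg9 transport and lipid transfer, 3 rose and 1 fell in swi3del, and 4 rose in snf2del. For comparison, 47.4% of all genes rose and 24.3% fell in swi3del, while 50.2% rose in snf2del. Whether so short a list differed from these shares was not tested. ATG2, which moves lipids into the growing membrane, had 10.01, 8.10 and 9.39 TPM in swi3-E815X and 22.4, 23.5 and 20.6 TPM in swi3del, against 9.80, 8.63 and 9.14 TPM in SWI3. For ATG2 the SNF2 family gave 10.3, 9.82 and 11.2 TPM in snf2-W935R, 13.4, 13.6 and 15 TPM in snf2-Q928K and 24.7, 21.8 and 21.5 TPM in snf2del, against 8.34, 9.77 and 9.53 TPM in SNF2. ATG2 rose by 1.18 ± 0.11 in swi3del, 0.56 ± 0.10 in snf2-Q928K and 1.21 ± 0.10 in snf2del. ATG23, a peripheral protein of Atg9 transport, rose by 0.71 ± 0.11 in swi3del and 0.83 ± 0.10 in snf2del, and ATG18, the phosphoinositide-binding partner of Atg2, by 0.43 ± 0.07 in snf2del, which kept its call at 0.18 under median-ratio scaling and 0.15 under quantile normalization. ATG9, the scramblase carried on the vesicles, rose by 0.51 ± 0.13 in swi3del, which quantile normalization turned to -0.14, and by 0.43 ± 0.12 in snf2del, where median-ratio scaling ended the call (0.20) and quantile normalization called it lower (-0.31).

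ATG27, a membrane protein of Atg9 transport (chrX:89282-90097), had the highest mean level over the 7 groups and was the only member called lower in swi3del. It had 171.0, 158.5 and 161.5 TPM in swi3-E815X and 129.7, 149.9 and 134.7 TPM in swi3del, against 154.6, 160.5 and 155.0 TPM in SWI3. For ATG27 the values were 136.0, 124.6 and 128.2 TPM in snf2-W935R, 124.9, 142.5 and 143.8 TPM in snf2-Q928K and 134.1, 137.7 and 136.5 TPM in snf2del, against 139.7, 147.7 and 153.3 TPM in SNF2. It fell by 0.18 ± 0.07 on the log2 scale in swi3del (limma adjusted p = 0.033). That call ended in 5 of 6 fits without 1 library (each SWI3 replicate, and swi3del replicates 1 and 3) and became larger under median-ratio scaling (-0.42). Under median-ratio scaling and quantile normalization ATG27 was also called lower in snf2-W935R (-0.20 and -0.18), snf2-Q928K (-0.21 and -0.19) and snf2del (-0.37 and -0.31). Without these scalings it was not called in any mutant of the SNF2 family. ATG27 lies 1955 bases from SWI3, the gene deleted in all 3 groups of the SWI3 family, and the part of that in the ATG27 level was not tested. The 3 remaining members, ATG20 (a sorting nexin), ATG21 (a phosphoinositide-binding protein) and ATG26 (a sterol glucosyltransferase), rose by 0.50 to 0.70 in swi3del and 0.50 to 0.76 in snf2del. Their calls held at smaller sizes under the other scalings, with 0.27 to 0.47 in swi3del and 0.25 to 0.51 in snf2del under median-ratio scaling, and 0.23 to 0.32 in swi3del and 0.19 to 0.45 in snf2del under quantile normalization.

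The deletions of SWI3 and SNF2, which have no control library in common, gave changes of similar size in most members. Of the members that rose, 24 rose in both, which is 92.3% of those in swi3del and 92.3% of those in snf2del, against 93.4% and 88.1% for all genes tested in both families. ATG14 and ATG36 passed the threshold only in swi3del, ATG18 and ATG5 only in snf2del, and ATG10, ATG12 and ATG27 were higher in neither. Across the 31 members the changes had a Pearson correlation of 0.95, against 0.94 across 6393 genes, as a description. In the test of the difference of the deletion effects, 0 of 31 members were called by limma, where 0.859% of all genes had a larger change in swi3del and 1.42% a smaller one. At an unadjusted p under 0.05 there were 4 members, where 13.2% of all genes passed. The differences ran from -0.34 to 0.78, with 95% intervals that reached between 0.195 and 0.658 to either side, so smaller differences could not be seen. For ATG8 the difference was 0.38 ± 0.23 (limma adjusted p = 0.508, 95% interval from -0.11 to 0.86).

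**Figure D4:**
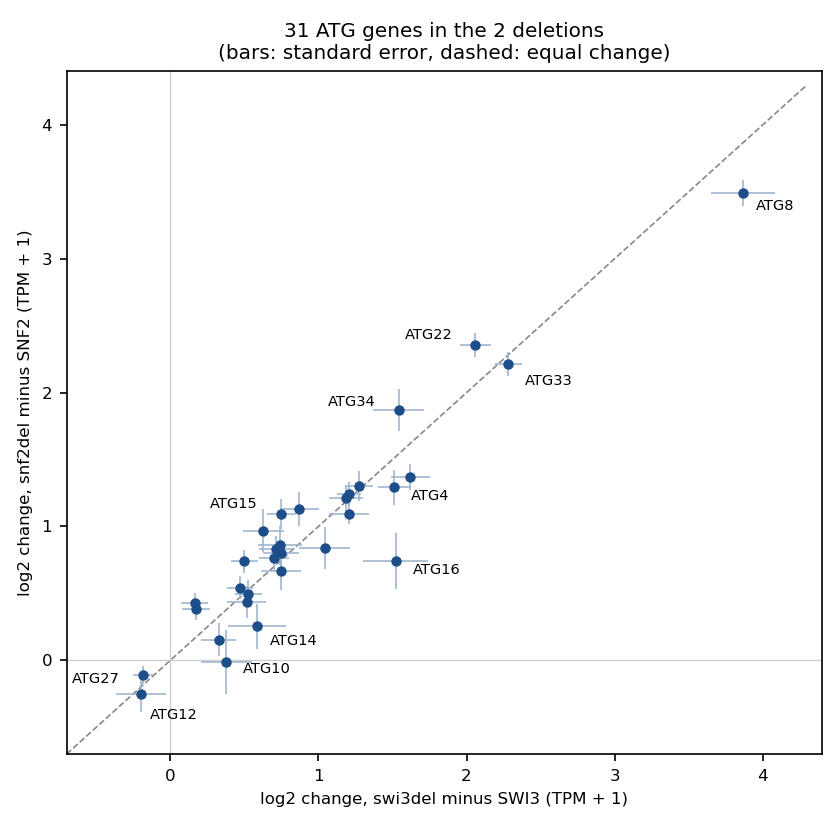
Log2 change of TPM + 1 in swi3del (x axis) and in snf2del (y axis) of the 31 ATG genes, with standard errors as bars and a dashed line of equal change. Most points lie along the line, ATG8 stands alone at 3.87 and 3.49, and ATG16 lies below the line at 1.52 and 0.74.

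The other alleles differed from the deletions in most members. In swi3-E815X, 1 member (ATG33) was higher and 0 lower than in SWI3 by limma, where 3.06% of all genes were higher and 5.77% lower. There were 6 members at an unadjusted p under 0.05, where 22.2% of all genes passed, and the authors' deposited table calls 0. The count was 2 without SWI3 replicate 3 and 0 without any other single library. The median change was -0.01, against -0.03 for all genes. Set against swi3del, 27 members were lower in swi3-E815X and 1, ATG27, was higher (0.24 ± 0.07), where 48.0% of all genes were lower and 20.9% higher, with a median of -0.88 against -0.25 for all genes. In snf2-W935R, 6 members (ATG8, ATG22, ATG1, ATG33, ATG38 and ATG13) were higher and 0 lower than in SNF2 by limma, where 16.3% of all genes were higher and 10.9% lower. The share of members was near that of all genes. There were 9 members at an unadjusted p under 0.05, where 38.0% of all genes passed, the authors' deposited table calls 0, and median-ratio scaling gave 6 higher and 2 lower (ATG27 and ATG32), where 15.4% of all genes were higher and 14.3% lower. Without SNF2 replicate 1, 3 members were higher.

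In snf2-Q928K, 17 members were higher and 1 (ATG12, which fell by 0.61 ± 0.13) lower than in SNF2, where 36.3% of all genes were higher and 20.7% lower. The median change was 0.27, against 0.10 for all genes. Median-ratio scaling left 12 higher and 2 lower, where 29.2% of all genes were higher and 30.2% lower, and quantile normalization 12 higher and 7 lower, where 27.6% and 30.7% were. A log2 change of at least 1 was reached by 4 members in snf2-Q928K (ATG8, ATG22, ATG33 and ATG34), where 7.05% of all genes reached it, and by 12 members in each deletion, where 17.5% did so in swi3del and 19.8% in snf2del. Against snf2del, 26 members were lower in snf2-W935R and 25 in snf2-Q928K, where 48.5% and 40.5% of all genes were lower, and by limma 0 were higher in either (23.4% and 22.3% of all genes). The median differences from snf2del were -0.75 in snf2-W935R and -0.57 in snf2-Q928K, against -0.23 and -0.14 for all genes. At an unadjusted p under 0.05 there were 26 members for snf2-W935R and 25 for snf2-Q928K, where 73.9% and 66.3% of all genes passed.

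Set against each other, snf2-Q928K and snf2-W935R differed in 13 members. In snf2-Q928K, 11 were higher than in snf2-W935R and 2 lower, where 30% of all genes were higher and 14.1% lower. The median difference was 0.18, against 0.08 for all genes. The differences were 0.96 ± 0.09 for ATG33 (limma adjusted p = 2.3e-06), 0.95 ± 0.16 for ATG34 (limma adjusted p = 0.000226), 0.89 ± 0.09 for ATG22 (limma adjusted p = 4.9e-06) and 0.77 ± 0.11 for ATG15 (limma adjusted p = 8.08e-05). ATG8 was close in both, with a difference of 0.27 ± 0.09 (limma adjusted p = 0.0334) that lost its call in all 6 fits without 1 library (0.26 to 0.28). ATG14 was lower in snf2-Q928K by -0.49 ± 0.17 and ATG12 by -0.42 ± 0.13, and the ATG14 call ended without snf2-W935R replicate 1, snf2-Q928K replicate 1 or snf2-Q928K replicate 3. Quantile normalization gave 7 higher and 6 lower, where 20.9% of all genes were higher and 23.3% lower. The group means ran in the order snf2del, snf2-Q928K, snf2-W935R and SNF2 from high to low in 14 of 31 members. The share of all genes in this order was not counted, so whether the order is particular to the members was not tested.

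**Figure D5:**
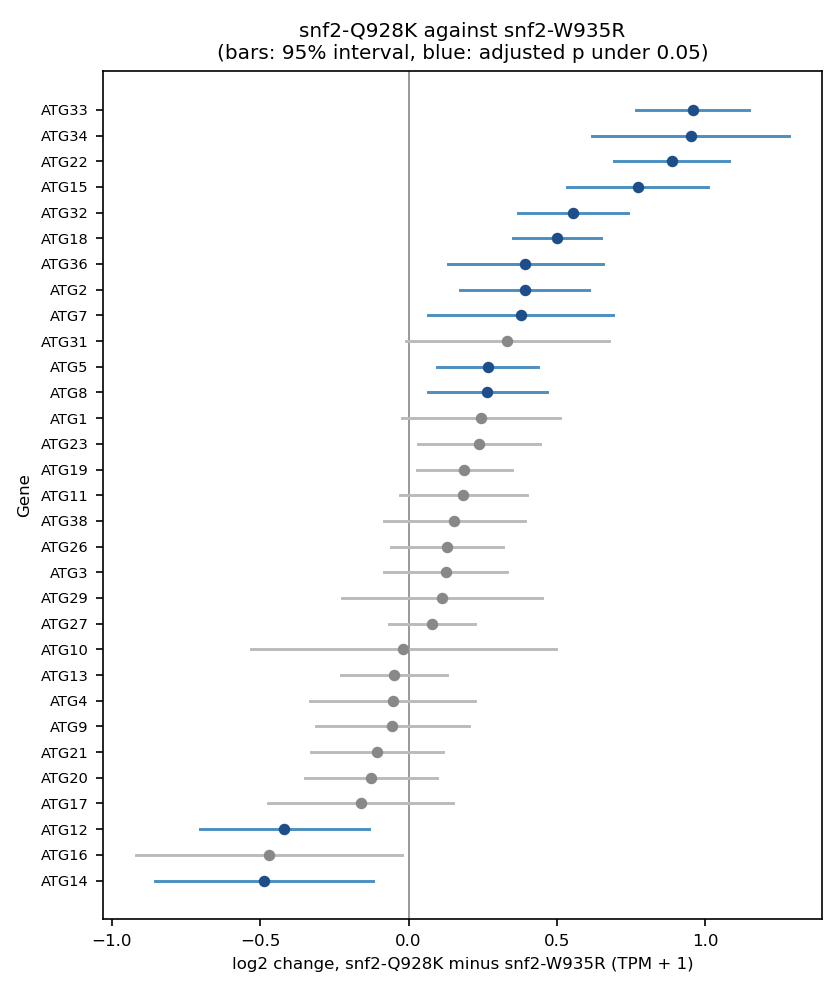
Log2 difference of TPM + 1 between snf2-Q928K and snf2-W935R (x axis) for each of the 31 ATG genes (y axis), with 95% intervals as bars and calls by limma in blue. ATG33, ATG34, ATG22 and ATG15 lie farthest to the right, between 0.77 and 0.96, and ATG14 and ATG12 to the left of 0.

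The wild types were near each other. Between SNF2 and SWI3, 1 member was higher in SNF2 (ATG16) and 1 lower (ATG5, -0.32 ± 0.08, limma adjusted p = 0.0361), where 1.41% of all genes were higher and 2.56% lower. The ATG5 call ended without SWI3 replicate 1, SWI3 replicate 2, SNF2 replicate 1 or SNF2 replicate 2.

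The authors' deposited tables of mutant against wild type give 30 of the 31 members (all but ATG38) for every mutant except snf2del, and fewer calls than limma. In swi3del the authors' deposited table calls 7 members higher and 1 lower (ATG27), where 16.6% of its genes are higher and 17.6% lower, while limma called 27. For snf2del the authors' deposited table is limited to genes past an adjusted p of 0.05 and lists 8 members, all higher where 49.8% of its genes are higher and 50.2% lower: ATG8, ATG22, ATG33, ATG3, ATG19, ATG32, ATG15 and ATG34. For snf2-Q928K it calls 2 (ATG22 and ATG33), where 8.99% of its genes are higher and 8.37% lower, and for snf2-W935R and swi3-E815X it calls 0, with 20 and 22 members given no adjusted p, where 2.6% and 0.824% of its genes are higher and 2.21% and 0.97% lower. Every member called by the authors was also called by limma with the same sign. The median standard error of the members was 0.487 in the authors' deposited table of swi3del, against 0.12 in limma's fit. The mean signal in the authors' deposited tables was 0.975 to 0.993 times the mean TPM of the same libraries in the median gene of at least 10 TPM. The input of the authors' tests is not described.

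Of the lists of genes that work with the ATG genes, the autophagy genes with other names and the vacuolar hydrolases had shares of higher calls above those of all genes in both deletions, and 3 other lists were nearer to all genes. Among 16 measured autophagy genes with other standard names, 13 rose and 1 fell in swi3del, and 12 rose and 1 fell in snf2del. Of all genes, 47.4% rose and 24.3% fell in swi3del, and 50.2% rose and 24.6% fell in snf2del. APE1, the aminopeptidase carried by the Cvt pathway, had 116.3 ± 8.56 TPM in swi3del, against 22.0 ± 2.07 TPM in SWI3, and 117.3 ± 3.58 TPM in snf2del, against 20.1 ± 2.02 TPM in SNF2. AMS1, the alpha-mannosidase that Atg34 carries in starved cells, rose by 1.99 ± 0.12 in swi3del and 2.16 ± 0.11 in snf2del. Of 13 genes of vacuolar hydrolases and their relatives, 11 rose and 1 fell in each deletion. PRB1, the vacuolar protease B, reached 509.1 ± 18.3 TPM in swi3del, against 56.8 ± 5.03 TPM in SWI3, and 658.9 ± 39.8 TPM in snf2del, against 68.0 ± 2.12 TPM in SNF2.

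Of 14 measured genes of fusion with the vacuole, 7 rose and 1 fell in swi3del, and 8 rose and 1 fell in snf2del, shares near those of all genes. The SNARE genes VTI1 (1.78 ± 0.10 in swi3del and 1.63 ± 0.07 in snf2del) and NYV1 (1.45 ± 0.10 in swi3del and 1.60 ± 0.07 in snf2del) were among those that rose. Of 29 measured nutrient kinases and their regulators, 14 rose and 5 fell in swi3del, and 18 rose and 3 fell in snf2del. That is 48.3% higher in swi3del, where 47.4% of all genes were, and 62.1% in snf2del, where 50.2% were, and the list's median stood 0.0002 above that of all genes in swi3del and 0.08 above in snf2del. RIM15, a kinase of nutrient limitation, rose by 1.38 ± 0.08 in swi3del and 1.48 ± 0.11 in snf2del. Of 17 known transcriptional regulators of ATG genes, 9 rose and 4 fell in swi3del, and 9 rose and 5 fell in snf2del. These shares, 52.9% higher and 23.5% lower in swi3del and 52.9% higher and 29.4% lower in snf2del, were near those of all genes. DAL80, a GATA repressor, rose by 1.95 ± 0.26 in swi3del and 1.77 ± 0.17 in snf2del. UME6, MSN2 and MSN4 bind motifs searched above, and UME6 and MSN2 were picked after their values were seen. GLN3 and GAT1, whose proteins bind the GATA element, are on the same list, and their changes in the deletions are not given here. UME6 fell by 0.26 ± 0.09 on the log2 scale in swi3del and 0.25 ± 0.09 in snf2del, and MSN2 fell by 0.65 ± 0.10 in swi3del and 0.35 ± 0.09 in snf2del. MSN4 went the other way and rose by 1.19 ± 0.11 in swi3del and 0.98 ± 0.13 in snf2del. These 3 genes kept their direction and call under both other scalings.

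A further 6 genes carry an ATG name in RefSeq but not in the table, a list added after the files were seen: YBR139W (ATG42), YIL156W-B (ATG44), YIL024C (ATG45), YLR312C (ATG39), YOR152C (ATG40) and ICY2 (ATG41). All 6 rose in each deletion, where 47.4% of all genes rose in swi3del and 50.2% in snf2del. Their median change was 1.43 in swi3del, against 0.23 for all genes, and 1.58 in snf2del, against 0.26 for all genes. YBR139W is also counted among the vacuolar hydrolases above, so these lists are not independent. YLR312C, a receptor of nuclear autophagy, had 38.2 ± 2.83 TPM in swi3del, against 1.63 ± 0.632 TPM in SWI3, and 42.6 ± 6.09 TPM in snf2del, against 1.93 ± 0.588 TPM in SNF2. YOR152C, a receptor of endoplasmic reticulum autophagy, rose by 1.30 ± 0.08 in swi3del and 1.28 ± 0.12 in snf2del and fell by 0.47 ± 0.12 in snf2-W935R. ICY2 had 134.8 ± 13.0 TPM in swi3-E815X and 1015.5 ± 35.8 TPM in swi3del, against 51.9 ± 11.8 TPM in SWI3, and was the 1 gene of the 6 called in swi3-E815X (1.38 ± 0.15). It also had 169.9 ± 8.54 TPM in snf2-W935R, 319.9 ± 1.71 TPM in snf2-Q928K and 825.5 ± 40.4 TPM in snf2del, against 55.0 ± 4.24 TPM in SNF2.

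The rise of ATG8 was not shared by its neighbours on chromosome II. NUP170, a nuclear pore gene 610 bases beyond the 3′ end, fell by 0.78 ± 0.09 in swi3del and 0.64 ± 0.10 in snf2del, and ILS1, the isoleucine tRNA synthetase gene 311 bases beyond the 5′ end, fell by 0.47 ± 0.07 in swi3del and 0.29 ± 0.07 in snf2del. Among 29 measured neighbours of the 16 members given by library, leaving out neighbours that are members, 13 rose and 7 fell in swi3del (44.8% higher), and 14 rose and 8 fell in snf2del (48.3% higher), close to the shares of all genes. The genes with the pattern most like ATG8 over the 7 group means of log2(TPM + 1), among 2271 genes with a range of at least 1, were KIN82, YET3, PEP12, GSM1 and SSO1, with Pearson correlations of 0.997 to 0.999. PEP12, a SNARE gene of the endosome, had 122.8 TPM in swi3del, against 36.2 TPM in SWI3, and 125.5 TPM in snf2del, against 39.2 TPM in SNF2. The median correlation of those 2271 genes with ATG8 was 0.89.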

How the data were processed

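RNA levels of 21 W303 libraries, 3 for each of 7 groups, were deposited as TPM. Per the submitters' processing notes, HISAT2, StringTie and DESeq2 were used with the sacCer3 (R64) genome. The versions, and the use of strand in counting, are not given. The authors' deposited comparison tables hold log2 fold changes with a test score, p-values and a mean signal per gene, and what they were computed from is not stated. Read depth is unknown, so no counting error can be given, and the 3 libraries of a group, collected on separate days per the labels, set the precision.

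From the deposited TPM, log2(TPM + 1) was fitted with limma 3.58.1 (trend and robust moderation, R 4.3.3). A gene entered a fit if 3 or more of its libraries reached 1 TPM, and p-values were adjusted by Benjamini-Hochberg over all genes tested, with calls under 0.05. Separate fits were made for the 9 SWI3-family and the 12 SNF2-family libraries. All 21 entered the comparisons that cross families. The steps were tested on simulated data. Alternatives were pseudocounts of 0.1 and 5, no filter, median-ratio scaling, quantile normalization, plain moderation, adding the other family's libraries, blocking on replicate number, and leaving out each library.

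Values in every library are given for members called in a mutant against its wild type with a log2 change of at least 1, and for the members with the highest and lowest mean level. Companion genes are named by smallest adjusted p among log2 changes of at least 1, at most 4 a list and comparison. Members and lists were chosen with earlier results of these data known. The promoter windows planned from a table were read from the R64 genome instead. No column of levels was left unmapped.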

Additional observations from a re-analysis of the deposited data

How the results depend on the processing

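The 2 deletions kept at least 20 higher members under every alternative run, and the medians of the members stayed 0.37 to 0.58 above those of all genes under the 3 scalings. Low levels limit ATG14 and ATG16 most, with the lowest means over the 7 groups (5.21 and 7.08 TPM). ATG9, ATG34, ATG29, ATG7 and ATG10 were next, at 8.61 to 9.75 TPM. Having 3 libraries a group limits every member, ATG12 among them, and read depth is unknown. In swi3-E815X against SWI3 the higher count was 0 with a pseudocount of 5 and with plain moderation, and 2 with the other libraries in the fit. Median-ratio scaling and quantile normalization gave lower counts of 2 and 2 in swi3del, 2 and 2 in snf2-W935R, 2 and 7 in snf2-Q928K, and 2 and 6 in snf2del, each against its wild type, and the other libraries in the fit gave 1 lower in snf2-W935R. Of all genes, these scalings called 35.7% and 37.7% lower in swi3del, 30.2% and 30.7% in snf2-Q928K, and 37.7% and 40.5% in snf2del. Median-ratio scaling called 14.3% lower in snf2-W935R. The same scalings gave the members higher counts of 2 and 3 for swi3-E815X against swi3del. For snf2-W935R against snf2del they gave 1 and 2, and for snf2-Q928K against snf2del 1 and 1. Under quantile normalization snf2-Q928K against snf2-W935R had 7 higher and 6 lower, where 20.9% of all genes were higher and 23.3% lower. For the other counts of this section the shares of all genes under the same setting are not given, so they describe the members only. Between SNF2 and SWI3 the higher count was 0 with a pseudocount of 5 and 0 with the other libraries, which also left 0 lower. Reversals under quantile normalization among the 16 members given by library included ATG14 in swi3del (-0.26), snf2del (-0.69) and swi3-E815X against swi3del (0.54). They also included ATG14 in snf2-W935R against snf2del (0.82) and snf2-Q928K against snf2del (0.10), and ATG16 in snf2del (-0.0363). Median-ratio scaling reversed ATG27 in snf2-W935R against snf2del (0.16). Other members changed sign too. Quantile normalization turned ATG9 to -0.14 in swi3del and -0.31 in snf2del, and ATG36 to -0.315 in snf2del. Median-ratio scaling turned ATG18 to -0.07 and ATG5 to -0.06 in swi3del. The cause was not tested. Leaving out 1 library gave higher counts of 0 to 2 in swi3-E815X, 24 to 26 in swi3del, 3 to 6 in snf2-W935R, 13 to 17 in snf2-Q928K and 26 in snf2del, and lower counts of 0 to 1 in swi3del and 0 to 1 in snf2del. It gave 8 to 10 higher and 0 to 2 lower for snf2-Q928K against snf2-W935R, and 0 to 1 higher and 0 to 1 lower for SNF2 against SWI3. Replicate numbers did not pair the libraries, as judged by each library's deviations from its group mean of log2(TPM + 1). Within a family these deviations correlated at -0.184 to 0.185 between same-numbered libraries, and 4 of 27 pairs passed 0.1. Across all groups 9 of 63 same-numbered pairs passed 0.1, against 25 of 126 pairs with other numbers. By the same measure 5 of 21 libraries matched their own number best. With the replicate block 27 members were higher and 1 lower in swi3del, 16 higher and 2 lower in snf2-Q928K, and 0 lower in SNF2 against SWI3.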
